A study of Mus musculus with 8 samples.

Results

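Hepcidin and 9 genes through which the liver controls and handles iron were followed across fetal and adult livers of mice with and without Btg2 (named TIS21 in the labels), a gene of the BTG/TOB growth-restraining family. The genes were Hamp, Hamp2, Tfr2, Trf, Slc40a1, Bmp6, Id1, Smad7, Fth1 and Ftl1. They were picked by symbol, and every array probe whose accession belongs to one of them was taken, which gave 12 probes among 55681 and 10 genes among 20284 named ones. All 10 passed the filter on dim probes (at least 1 group with both its arrays well above background). Because the list was drawn up with earlier results of these arrays known, the values of these genes are given as a description and carry no p-value.

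The 4 RNA samples were livers of TIS21-knockout males aged 10 weeks and fasted for 20 h (adult KO), livers of wild-type males of that age after the same fast (adult WT), a pool of knockout fetal livers of embryonic day 13.5 (fetal KO) and a wild-type pool of that day (fetal WT), all from C57BL/6J mice. The fetal pools held both sexes and more than 3 fetuses of a womb, and the sources used here do not say how many adults stood behind an adult sample. Each RNA sample was put on 2 arrays as technical duplicates. The spread given below is therefore array error, and a difference compares RNA samples, not genotypes over animals. Every adult had been fasted, so no effect of fasting can be read. The adults were males and the fetal pools, of both sexes, carry no fasting label. A difference between adult and fetal liver therefore cannot be told apart from one of fasting or sex.

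Hepcidin is a peptide hormone that hepatocytes release when iron is plentiful. It binds the iron exporter ferroportin and has it degraded, which keeps iron inside macrophages and gut cells. BMP ligands from the sinusoidal endothelium drive its transcription through SMAD proteins, inflammation adds to it through STAT3, and red cell precursors, which crowd the fetal liver, restrain it when they need iron. Transferrin carries iron in plasma and ferritin stores it in cells.

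All values of signal are multiples of the 75th percentile (P75) of the same array, which lay at 171 and 170 intensity units on the adult KO arrays, 133 and 132 on the adult WT arrays, 279 and 278 on the fetal KO arrays, and 334 and 325 on the fetal WT arrays. On adult arrays 38.5% to 42.3% of probes were well above background. On fetal arrays it was 48.7% to 49.8%, but for the first fetal WT array with 61.1%, against 49.8% on its duplicate. No spot was saturated. Btg2 was well above background on all 4 WT arrays and on 0 of the 4 KO arrays (0.0163 to 0.0473 in KO, 1.12 to 6.41 in WT), so no array went against its label. Hepatocyte markers were present: all 12 tested were well above background on both arrays of each adult group. In fetal KO 3 of the 12 were well above background on neither array, against 0 in fetal WT. Of the 12, 1 was called lower in fetal KO, beside 1.43% of all genes. Signals of different probes are not compared with each other. In bulk RNA, fewer cells of a type and less RNA per cell cannot be told apart.

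In fetal liver, Hamp was the gene of the 10 that stood out: the KO pool held 3.76 times the level of the WT pool. In adult liver Hamp hardly differed between the genotypes, while Id1 was 2.05 times lower in KO. Bmp6 and Slc40a1 were higher and Trf, Fth1 and Ftl1 lower in adult KO, each by less than 2-fold. A gene counted as called when limma gave an adjusted p under 0.05 over 14582 genes and a difference of at least 2-fold. By that rule 1 of the 10 was called in adult liver (Id1, lower), where 7.47% of all genes were called, 4.95% higher and 2.52% lower. In fetal liver 1 of the 10 was called (Hamp, higher), where 1.93% of all genes were called, 0.507% higher and 1.43% lower. The adult effect minus the fetal effect was called for 2 of the 10 (Hamp and Id1, both lower), beside 9.76% of all genes, 6.03% higher and 3.73% lower. Nothing is read from these counts, because the genes were chosen with these contrasts known. The arrays of KO and WT did not overlap for 8 of the 10 genes in adult liver and for 8 in fetal liver, but that held for 77.3% and 71.2% of all genes.

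**Figure D1:**
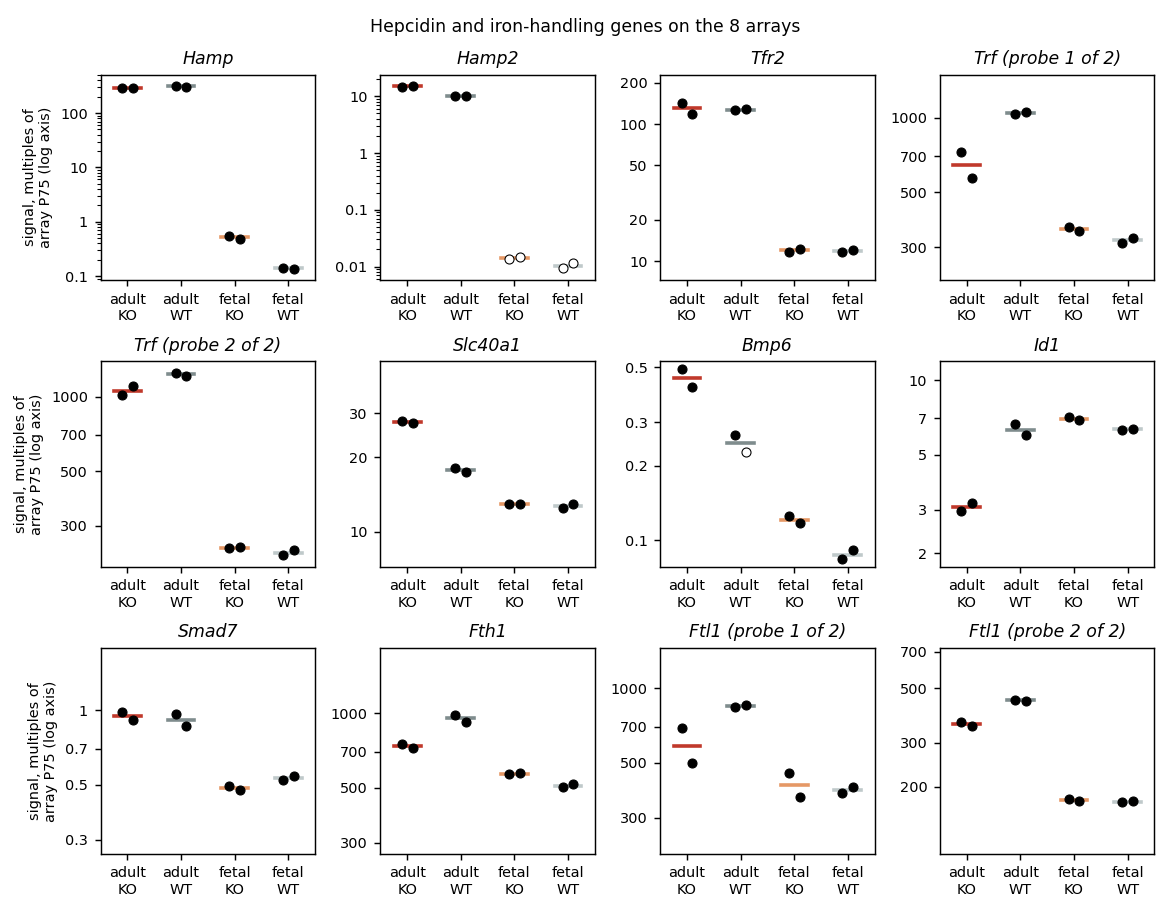
Signal of each probe on the 8 arrays, as multiples of the array's 75th percentile on a log axis. Points are single arrays, bars the mean of the 2 log values, and open points were not well above background. Hamp spans from 320 in adult WT down to 0.136 in the fetal WT pool, and Id1 is lowest in adult KO.

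Hamp encodes hepcidin itself. Its probe read 286 and 286 in adult KO, against 320 and 302 in adult WT. The difference was -0.12 ± 0.06 (log2, SE of array error, 2 arrays per sample), and its sign turned with the scaling (up to 0.18 with quantile normalization). In the fetal pools Hamp read 0.558 and 0.488 in KO, against 0.142 and 0.136 in WT. All 4 fetal values were well above background and those of KO lay above those of WT, but in intensity units they were small, 156 and 135 in KO and 47.4 and 44.1 in WT. The fetal difference was 1.91 ± 0.06, and 1.17 with the normexp background correction. The adult effect minus the fetal effect was -2.03 ± 0.09.

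Hamp2 is a second hepcidin gene of the mouse, a near copy of Hamp, so a probe for one may take up RNA of the other. Hamp2 read 14.7 and 15.1 in adult KO, against 10.2 and 9.92 in adult WT, a difference of 0.57 ± 0.13. The KO arrays were the higher ones here, unlike those of Hamp. On the 4 fetal arrays Hamp2 was not well above background (0.0136 and 0.0150 in KO, 0.00931 and 0.0114 in WT), so no fetal fold is given and a change like that of Hamp could not be seen at this signal.

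The promoters of both hepcidin genes are shown because Hamp and Hamp2 differ at a match to the core of a BMP-response element. Bases further upstream were not searched. The sequences are the 250 bases before each start in RefSeq (GRCm38.p6), on the minus strand, at chr7:30944030-30944279 for Hamp and chr7:30924182-30924431 for Hamp2. Capitals mark the core of the BMP-response element (GGCGCC) and a STAT site (TTCNNNGAA).
Hamp: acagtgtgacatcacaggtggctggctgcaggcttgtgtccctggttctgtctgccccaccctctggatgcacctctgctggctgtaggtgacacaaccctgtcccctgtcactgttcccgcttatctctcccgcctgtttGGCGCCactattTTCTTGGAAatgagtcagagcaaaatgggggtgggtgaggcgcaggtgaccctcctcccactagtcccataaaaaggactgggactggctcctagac
Hamp2: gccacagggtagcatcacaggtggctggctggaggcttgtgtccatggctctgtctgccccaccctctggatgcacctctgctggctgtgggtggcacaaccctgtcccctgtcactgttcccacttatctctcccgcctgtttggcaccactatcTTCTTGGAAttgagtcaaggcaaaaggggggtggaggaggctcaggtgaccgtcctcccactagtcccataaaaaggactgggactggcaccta
Aligned over 253 columns, the windows were identical at 227 (89.7%). GGCGCC began 109 bases before the start of Hamp. The aligned bases of Hamp2 carried G4A (positions counted from 1 at the 5′ end of the Hamp element), so that window had no match. The STAT site was the same in both, TTCTTGGAA, and began 97 bases before the start of Hamp and 94 before that of Hamp2. Both motifs read the same on either strand and do not overlap in these windows. Of 32851 promoter windows of this length, 9.59% held GGCGCC and 7.02% held TTCNNNGAA. RefSeq windows were searched for 6 of the 10 genes, in 9 entries, and those of Tfr2, Bmp6, Fth1 and Ftl1 held neither motif. No entry was found for Trf, Slc40a1 and Id1. Smad7 was left out of the search, so nothing is known here of motifs in its promoter. A search for CACGTG (6.02% of windows) and for TATAAA on both strands (12.4%) found 1 match each, in Bmp6 and in Fth1. A match describes letters and was not tested for binding.

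Bmp6 encodes the main iron-responsive ligand for hepcidin, made largely by sinusoidal endothelial cells. It read 0.492 and 0.417 in adult KO, against 0.267 and 0.228 in adult WT, where 1 of the 2 arrays was not well above background. KO was higher on both arrays, by 0.88 ± 0.17, which passed 2-fold under 4 other scalings (1.01 to 1.07) but came to 0.18 with normexp. In the fetal pools Bmp6 read 0.125 and 0.117 in KO, against 0.0838 and 0.0911 in WT (0.47 ± 0.17). Of 13 endothelial markers 1 rose in adult KO (Tek), beside 4.95% of all genes called higher, with a list median of 0.35. Their summed signal was 133 to 140 in adult KO, against 105 to 106.8 in adult WT. The part of these cells in the Bmp6 difference was not tested.

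Id1 encodes an inhibitor of helix-loop-helix factors and is a direct BMP/SMAD target in hepatocytes that usually moves with hepcidin. It read 2.95 and 3.195 in adult KO, against 6.63 and 5.98 in adult WT. The groups did not overlap and the difference was -1.04 ± 0.06. This lies just past 2-fold. It fell short of it in 7 of 19 other settings (-0.85 to -0.98), among them every other scaling, and without the first adult KO array (-0.98) or the first adult WT array (-0.96), and it kept its sign in all 19. In the fetal pools Id1 read 7.11 and 6.89 in KO, against 6.28 and 6.37 in WT, a difference of 0.15 ± 0.06.

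Smad7 encodes an inhibitory SMAD that dampens BMP signalling and is itself induced by it. It read 0.985 and 0.916 in adult KO, against 0.968 and 0.863 in adult WT, and the arrays overlapped (0.06 ± 0.09). Smad7 read 0.497 and 0.477 in fetal KO, against 0.525 and 0.541 in fetal WT (-0.13 ± 0.09). Tfr2 encodes transferrin receptor 2, by which hepatocytes sense iron-loaded transferrin. It read 144 and 118 in adult KO, against 126 and 129 in adult WT, and 11.7 and 12.4 in fetal KO, against 11.7 and 12.03 in fetal WT. The arrays of the genotypes overlapped at both stages, with differences of 0.03 ± 0.08 in adult and 0.02 ± 0.08 in fetal liver.

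Trf encodes transferrin, which hepatocytes secrete. Its first probe read 730 and 570 in adult KO, against 1038 and 1058 in adult WT (-0.70 ± 0.10). Its second read 1012 and 1099 in adult KO, against 1245 and 1211 in adult WT (-0.22 ± 0.05). After scaling, both probes were lower on every adult KO array, but by different amounts. In unscaled intensity units the first probe was lower in adult KO. The second was higher there (173002 and 186298, against 165797 and 160457 in adult WT). With the deposited value table the adult difference of the first probe came to -0.26. The first probe read 361 and 350 in fetal KO, against 313 and 328 in fetal WT, and the second 244 and 246 in fetal KO, against 229 and 239 in fetal WT (0.15 ± 0.10 and 0.07 ± 0.05).

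Slc40a1 encodes ferroportin, the iron exporter that hepcidin removes and that is abundant in Kupffer cells, the macrophages of the liver. It read 28.0 and 27.4 in adult KO, against 18.1 and 17.3 in adult WT. The adult difference was 0.65 ± 0.03 (1.56-fold), and between 0.61 and 0.83 in 19 other settings. In the fetal pools it read 12.9 and 12.9 in KO, against 12.5 and 12.9 in WT (0.02 ± 0.03). Of 13 tested macrophage markers 12 rose in adult KO, beside 4.95% of all genes called higher. Their summed signal was 368 to 376 in adult KO, against 64.9 to 68.1 in adult WT. Their fetal sum was 124 to 125 in KO, against 100 in WT. In the fetal pools limma called 0 of the 13, beside 1.93% of all genes (7 had an unadjusted p under 0.05). The part of macrophages in the Slc40a1 difference was not tested.

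Fth1 and Ftl1 encode the heavy and light chains of ferritin, whose protein level is set mainly by translation and is not seen here. Fth1 read 752 and 724 in adult KO, against 989 and 927 in adult WT (-0.38 ± 0.05). The first Ftl1 probe read 692 and 497 in adult KO, against 838 and 856 in adult WT (-0.53 ± 0.16), and the second 364 and 350 in adult KO, against 449 and 444 in adult WT (-0.32 ± 0.03). All ferritin probes were lower on both adult KO arrays. Under the deposited value table and quantile normalization the adult differences shrank, to -0.01 for Fth1 and -0.12 for the first Ftl1 probe. Fetal Fth1 read 568 and 575 in KO, against 503 and 519 in WT (0.16 ± 0.05). The fetal differences of Ftl1 were 0.07 ± 0.16 and 0.03 ± 0.03.

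**Figure D2:**
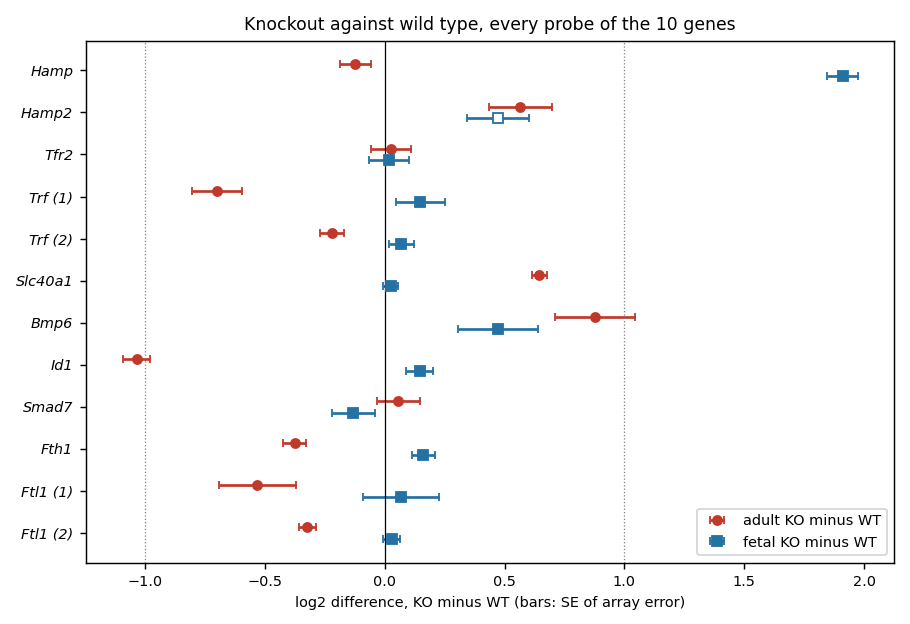
Log2 difference of KO minus WT for each probe in adult (circles) and fetal (squares) liver, with bars for limma's standard error of array error and dotted lines at 2-fold. Hamp at 1.91 in fetal liver and Id1 at -1.04 in adult liver lie past the lines, and the open square of Hamp2 rests on signals not above background.

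Over all genes, far more were called between the stages (55% in WT and 53.3% in KO) than between the genotypes (7.47% in adult and 1.93% in fetal liver). This did not hold for each of the 10 genes. Between the stages in WT, Id1 differed by -0.01 and Slc40a1 by 0.48, against -1.04 and 0.65 between the adult genotypes. Of the 10 genes, 6 were called higher in adult than in fetal WT liver, where 27.4% of all genes were, and 0 were called lower, with 27.6% of all genes. Of the 10, 5 were called higher and 1 lower in adult than in fetal KO liver, where 25.8% and 27.5% of all genes were. These counts moved with the scaling. In WT 5 genes were called higher with normexp, quantile normalization, the percentile over detected probes and the deposited value table, and 4 with median scaling. In KO each of these 5 settings called 4 higher and 1 lower. The arrays of the stages did not overlap for 9 of the 10 genes in WT and for all 10 in KO, beside 92.6% and 94.2% of all genes.

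Hamp was 11.13 ± 0.06 higher on the log2 scale in adult than in fetal WT (2243-fold) and 9.10 ± 0.06 in KO (548-fold). With normexp these log2 differences were 9.58 in WT and 8.41 in KO. Hamp2 was at least 219-fold higher in adult WT and at least 236-fold in adult KO, set against the lowest signal well above background on the fetal arrays. Tfr2 was higher in adult liver by 3.43 ± 0.08 in WT and 3.44 ± 0.08 in KO. Bmp6 was higher by 1.5 ± 0.17 in WT, a call lost with median scaling (0.87), and by 1.90 ± 0.17 in KO. The first Trf probe gave 1.71 ± 0.10 in WT and 0.86 ± 0.10 in KO, and the second 2.39 in WT and 2.10 in KO. The KO difference of Trf passed 2-fold with the mean of its probes (1.48) and without the second adult KO array (1.04). Slc40a1 was higher in adult liver by 0.48 ± 0.03 in WT, a sign lost with median scaling (-0.15), and by 1.10 ± 0.03 in KO, a call lost in 5 settings (0.62 to 0.84). Smad7 was higher by 0.78 ± 0.09 in WT and 0.96 ± 0.09 in KO, where it passed 2-fold without the second adult KO array (1.02). Fth1 differed by 0.91 ± 0.05 in WT, which came to 0.03 with the deposited value table, and by 0.37 ± 0.05 in KO, which turned to -0.11 with median scaling. The first Ftl1 probe gave 1.13 ± 0.16 in WT, a call lost in 5 settings (0.38 to 0.77), and 0.53 ± 0.16 in KO. The second Ftl1 probe gave 1.37 in WT and 1.01 in KO. Id1 did not share this order: it was level between the stages in WT (-0.01 ± 0.06) and lower in adult than in fetal KO liver (-1.19 ± 0.06). In the order of levels, adult KO and adult WT could not be separated for Tfr2 and Smad7, nor fetal KO and fetal WT for Tfr2 and the first Ftl1 probe, nor adult WT and fetal WT for Id1.

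Cell types moved with the stages. The summed signal of 12 hepatocyte markers was 7248 to 7353 in adult KO and 8271 to 8444 in adult WT, against 1226 to 1238 in fetal KO and 1187 to 1192 in fetal WT. That of 12 erythroid markers was 3.18 to 3.60 in adult KO and 3.35 to 3.70 in adult WT, against 685 to 693 in fetal KO and 551 to 552 in fetal WT, and 7 of the 12 were well above background on neither array of each adult group. Their part in the stage differences was not tested. Scaling matters here too: with median scaling the median of all genes shifted by -0.63 for adult against fetal WT and by -0.51 for KO.

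The genes around hepcidin were taken from 6 lists of 76 genes in all, of which 73 were tested, with p-values adjusted over all 14582 genes. In adult liver 5 of the 73 rose and 2 fell in KO (9.59%, beside 7.47% of all genes), with a median of 0.02, against -0.10 over all genes. In fetal liver 2 were called higher (Il6 and Steap3) and 1 lower (Scara5) in KO (4.11%, beside 1.93%), with medians of 0.04 and 0.02. The Steap3 call turned on the probe, and averaging each gene's probes left 1 of the 73 called.

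Of 22 tested genes of the BMP/SMAD route, limma called 0 in either genotype comparison. Over all genes 7.47% were called in adult and 1.93% in fetal liver, so few calls would fall among 22 genes at those shares. At an unadjusted p under 0.05 there were 13 in adult and 10 in fetal liver. The share of all genes under that unadjusted threshold is not given. Nothing is therefore read from such counts, here or for the other lists and markers. The inhibitor of the route Tmprss6, a protease that cuts hemojuvelin, differed by 0.32 ± 0.02 in adult liver (adjusted p = 3.57e-05) and -0.06 ± 0.02 in the fetal pools (adjusted p = 0.119). Hjv, which encodes the co-receptor hemojuvelin, read 0.159 and 0.126 in fetal KO, against 0.327 and 0.241 in fetal WT. Its fetal difference of -0.99 ± 0.16 (adjusted p = 0.00656) stayed just short of 2-fold at the 75th percentile scaling, while its adult difference was 0.12 ± 0.16 (adjusted p = 0.551). Fetal Hjv was called lower with the percentile over detected probes (-1.03), without the first fetal KO array (-1.16) and without the second fetal WT array (-1.21). Bmp2, the other endothelial ligand, differed by -0.65 ± 0.05 in adult liver (adjusted p = 3.56e-05), opposite in sign to Bmp6. Hfe, the haemochromatosis gene, differed by -0.02 ± 0.05 (adjusted p = 0.747). The other BMP targets of the list differed in sign in adult liver: Id2 by -0.46 ± 0.02, Id3 by 0.52 ± 0.03, Smad6 by -0.21 ± 0.07 and Atoh8 by 0.10 ± 0.19. Id4 was not well above background in adult WT and was at least 1.62-fold higher in adult KO (adjusted p = 0.00293). These 5 were not called in adult liver at the 75th percentile scaling, and Id4 was called under quantile normalization and the deposited value table (1.16 each) and median scaling (1.03).

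Of 10 genes of the inflammatory route, Inhbb fell in adult KO and Il6 rose in fetal KO. Over all genes 7.47% were called in adult and 1.93% in fetal liver. Inhbb, which encodes the activin B subunit, read 0.334 and 0.365 in adult KO, against 0.946 and 0.991 in adult WT (-1.47 ± 0.13, adjusted p = 6.76e-05), and its call was lost with normexp (-0.79). Il6 read 0.195 and 0.186 in fetal KO, against 0.0768 and 0.0711 in fetal WT (1.37 ± 0.23, adjusted p = 0.00736). That call was lost with normexp (0.63) and without either fetal KO array (1.40 and 1.33), and Il6 was not well above background on any adult array. For Stat3 the adult difference was -0.71 ± 0.02 and the fetal one 0.31 ± 0.02 (adjusted p = 6.51e-07 and 0.000379), by another probe -0.06 and -0.04. Socs3, a STAT3 target, differed by -0.62 ± 0.05 and 0.17 ± 0.05 (adjusted p = 2.99e-05 and 0.0434). Of the 10, 9 had negative differences in adult and 8 positive ones in fetal liver. The list medians were -0.26 in adult and 0.14 in fetal liver, against -0.10 and 0.02 over all genes. The signs over all genes are not given, so nothing is read from this count.

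Of 16 tested genes of iron uptake and transport, 2 were called higher in adult KO (Scara5 and Steap4). In fetal KO 1 was called higher (Steap3) and 1 lower (Scara5). That was 12.5% at each stage, beside 7.47% of all genes in adult and 1.93% in fetal liver. Scara5, a ferritin receptor, read 3.03 and 2.98 in adult KO, against 0.333 and 0.470 in adult WT (2.92 ± 0.27, adjusted p = 7.44e-05), but another Scara5 probe gave -0.03 ± 0.70. In fetal KO it was not well above background and at least 1.56-fold lower than in WT (adjusted p = 0.0153), a call lost without the first fetal KO array (-1.09) or the first fetal WT array (-0.98) and with normexp (-0.14). Steap4, a metalloreductase, read 3.03 and 2.94 in adult KO, against 1.03 and 1.08 in adult WT (1.5 ± 0.12, adjusted p = 4.54e-05). Steap3, the ferrireductase of red cell precursors, read 7.86 and 8.10 in fetal KO, against 2.6 and 2.64 in fetal WT (1.61 ± 0.05, adjusted p = 8.9e-06). Its other probe went the opposite way, -1.30 ± 0.07 in fetal and -3.21 ± 0.07 in adult liver, and the mean of both probes was 0.15 in fetal liver and not called, so no direction is given for Steap3. The copper oxidase gene Cp and the transporter gene Slc39a14 differed by 0.15 ± 0.03 and -0.25 ± 0.04 in adult liver (adjusted p = 0.0028 and 0.0015).

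Of 13 genes of haem and iron recycling, 3 rose and 1 fell in adult KO (30.8%, beside 7.47% of all genes). In fetal KO limma called 0, beside 1.93% of all genes (8 had an unadjusted p under 0.05). Slc11a1, the iron exporter of macrophage phagosomes, read 3.41 and 3.31 in adult KO, against 0.742 and 0.688 in adult WT (2.23 ± 0.05, adjusted p = 2.17e-07). Hmox1, which encodes the haem-degrading enzyme haem oxygenase 1, read 9.37 and 9.28 in adult KO, against 4.70 and 4.47 in adult WT (1.02 ± 0.03, adjusted p = 6.92e-07), and 0.99 without the second adult WT array. Cd163, the haptoglobin-haemoglobin receptor of macrophages, was at least 1.71-fold higher in adult KO (adjusted p = 0.00164) and was well above background in that group alone, a call lost with normexp (0.41). These 3 genes rose beside the 12 of 13 macrophage markers given above. Flvcr2, a transporter first described for haem, read 0.729 and 0.734 in adult KO, against 3.99 and 4.06 in adult WT (-2.46 ± 0.05, adjusted p = 8.76e-08).

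Of 5 tested erythroid regulators and of 7 iron and oxygen sensing genes, limma called 0 in either genotype comparison. The shares over all genes were 7.47% in adult and 1.93% in fetal liver. At an unadjusted p under 0.05 there were 3 and 4 in adult and 3 and 4 in fetal liver. Tfrc, the transferrin receptor of dividing and erythroid cells, differed by -0.56 ± 0.03 in adult liver (adjusted p = 5.56e-06) and by 0.02 ± 0.03 in the fetal pools. Its other 2 probes gave -1.22 ± 0.12 and -1.81 ± 0.07 in adult liver, and 0.60 ± 0.12 and 0.74 ± 0.07 in the fetal pools. With the mean of its probes, Tfrc was called lower in adult KO (-1.20), and the adult effect minus the fetal effect was called too (-1.65). The iron-sensing RNA-binding protein genes Aco1 and Ireb2 differed by 0.09 ± 0.11 and -0.12 ± 0.12 in adult liver (adjusted p = 0.512 and 0.449).

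**Figure D3:**
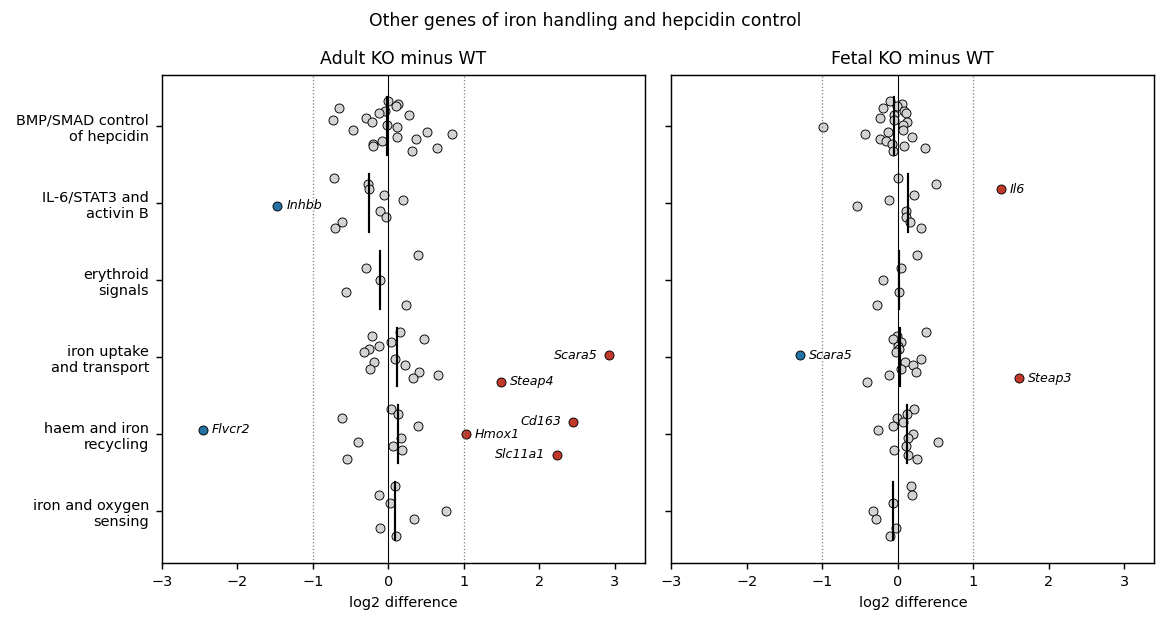
Log2 difference of KO minus WT for the 73 tested genes of the 6 wider lists, in adult (left) and fetal (right) liver. Filled red and blue points were called higher and lower, black bars are list medians and dotted lines mark 2-fold. The BMP/SMAD list (22 genes) has 0 called genes on either side, beside 7.47% of all genes in adult and 1.93% in fetal liver. Of the 7 adult calls, 4 lie in haem and iron recycling (13 genes).

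Between the stages, 28 of the 73 genes were called higher and 13 lower in adult than in fetal WT (56.2%, beside 55% of all genes), and 22 and 16 in KO (52.1%, beside 53.3%). The BMP/SMAD list had 9 of 22 higher and 0 lower in adult WT, beside 27.4% and 27.6% of all genes. Called either way, this list stood at 40.9% in WT (all genes 55%) and 31.8% in KO (all genes 53.3%). Its WT differences were led by Tmprss6 (4.05 ± 0.02), Hjv (3.39 ± 0.16), Atoh8 (3.36 ± 0.19) and Hfe (3.22 ± 0.05). The plasma genes Cp (7.85 ± 0.03) and Hp (6.93 ± 0.05) were also higher in adult liver. Genes of erythroid signalling and iron supply were lower there, Epor (-6.37 ± 0.04), the mitochondrial importer gene Slc25a37 (-5.21 ± 0.03) and Tfrc (-4.42 ± 0.03), beside 11 of 12 erythroid markers. Erfe, the erythroid hormone that restrains hepcidin, was not well above background in adult WT and at least 1.75-fold lower than in fetal WT by 1 probe. That call was lost with normexp (-0.25), and the other Erfe probe gave -0.21 ± 0.25. The adjusted p of these genes ran from 1.79e-12 to 3.1e-06.

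Among 10609 genes well above background on all 8 arrays, the genes closest to Hamp in their pattern over the 4 group means included Slco1b2, Plin5, Ugt3a2 and Cyp2d40, at distances of 0.98 to 1.32 on the log2 scale. The closest to Bmp6 was Insig1 (0.21). Those closest to Slc40a1 were Pecam1, Pdia5, Fabp4, Atp11b and Asap3, at nearly equal distances of 0.11 to 0.13. None is given for Hamp2, whose fetal signals were not above background. These distances describe 4 RNA samples.

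**Figure D4:**
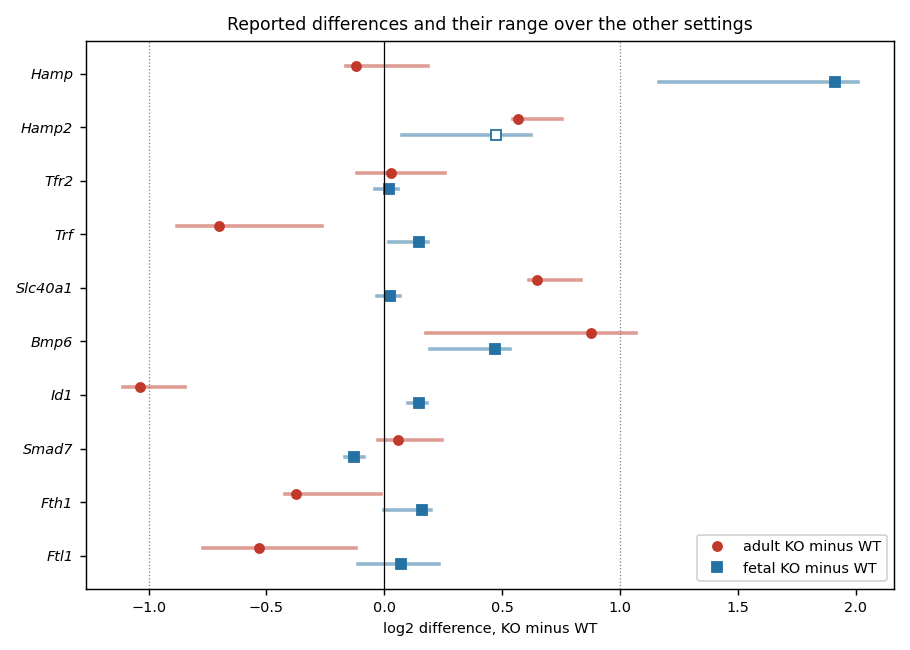
Log2 difference of KO minus WT for the 10 genes (points) with the lowest and highest value over the 18 or 19 other settings (bars), and dotted lines at 2-fold. The fetal Hamp bar runs from 1.17 to 2.01, and the adult Hamp bar crosses 0.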

How the data were processed

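Per the file headers, the authors' scanner files came from Agilent Feature Extraction 10.7.3.1. They hold intensity values on a linear scale per spot: a background-corrected processed signal, a median signal and a local background. The deposited value table holds intensity values on a common scale, and how it was prepared is not stated in the labels. It served as an alternative.

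Log2 of the processed signal minus the array's 75th percentile over 59305 non-control spots was used. Spots with an outlier flag were left out (92 to 188 per array) and spots of a probe averaged. Accessions were named through RefSeq (GRCm38.p6), which named 26762 probes and left 28919 unnamed. A gene was tested on its brightest probe among those with both arrays of at least 1 group well above background. R 4.3.3 and limma 3.58.1 (lmFit, eBayes with trend) fitted all 8 arrays and 4 groups together, with Benjamini-Hochberg adjustment over 14582 genes. The fit was tested on simulated data. P-values measure array error only.

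The members and lists were chosen with earlier results of these data known. The named genes are the 10 members, the wider genes called (up to 4 each way per list) and a fixed set of regulators. Likeness was the Euclidean distance between centred group means. Normexp used the median signal with an offset of 50, because the files used here have no mean signal column. One gene of that comparison is not reported here.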

Additional observations from a re-analysis of the deposited data

Results flagged for a closer look

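For 13 genes the KO effect differed between adult and fetal liver by at least 2-fold with an adjusted p under 0.05 for the difference itself. The test was limma's interaction term (array error only). The 13 were 2 of the 10 iron genes and 11 of the 73 wider genes (15.1%), beside 9.76% of all genes. The 2 iron genes, Hamp (-2.03) and Id1 (-1.18), are given as a description. For Id1 the difference was not called with normexp (-0.96) or median scaling (-1.03). Among the wider genes, adult effect minus fetal effect was 1.11 for Hjv and 1.28 for Id4 (not well above background in adult WT) in the BMP/SMAD list, and -1.02 for Stat3 and -1.62 for Il6 (not well above background on any adult array) in the inflammatory list. The Hjv value was 0.94 without the second fetal KO array and 0.89 without the first fetal WT array, both short of 2-fold. In uptake and transport it was -1.27 for Steap3, whose probes disagreed, 1.90 for Steap4 and 4.22 for Scara5. Steap4 and Scara5 were not well above background on either fetal KO array. Where a group was not above background, the value is not a measured size. In recycling it was 2.37 for Cd163 (well above background in adult KO alone), -2.20 for Flvcr2 and 2.09 for Slc11a1, and it was 1.10 for the ferritin and IRP2 regulator gene Fbxl5. With normexp the values of Hjv, Id4, Stat3, Il6, Cd163 and Fbxl5 no longer passed. That of Stat3 was also lost with 4 other scalings (-0.83 to -0.87) and the mean of its probes (-0.52), and that of Il6 with median scaling (-1.46).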

How the results depend on the processing

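Over 19 other settings, 912 of 940 values of the 10 genes stayed on the same side of the call rule, 20 no longer passed and 8 newly passed, with 0 called values changing sign. The wider genes gave 1 called reversal, Steap3 in adult liver, which came to -1.44 with the mean of its 2 probes. With normexp 347 genes were called in adult and 67 in fetal liver, 472 for the difference between these effects, and of the wider genes 1 in fetal liver and 5 for the difference. Requiring all 8 arrays above background, which tests fewer genes, gave 501, 26 and 696 for these comparisons, against 1090, 282 and 1423, and 5330 and 5142 for adult against fetal WT and KO, against 8018 and 7777. Of the wider genes 4, 1 and 6 were then called, against 7, 3 and 11. The mean of a gene's probes called 1 wider gene in fetal liver. Without single arrays the counts were 1065 to 1450 in adult liver, 190 to 304 in fetal liver and 1317 to 1732 for the difference. Array row on the slide as a replicate block gave 1087 and 274 genes in adult and fetal liver and changed no call of the 10 genes or of the wider genes. The share of calls that were higher moved by over 10 points without the first adult WT array (781 higher and 669 lower in adult liver, against 722 and 368), with median scaling (1047 and 311) and with the percentile over detected probes (914 and 251). Between the stages median scaling gave 2648 higher and 6067 lower in WT and 2749 and 5606 in KO, against 3993 and 4025 in WT and 3765 and 4012 in KO, and the percentile over detected probes gave 2975 and 5373 in WT. The split moved the other way with no filter on dim probes (7488 higher and 4006 lower in WT, 6777 and 4007 in KO) and with all 8 arrays above background (3347 and 1983 in WT, 3074 and 2068 in KO). For the difference between the genotype effects 4 scalings gave 954 to 1192 higher and 314 to 390 lower, against 879 and 544, and normexp gave 28 higher and 39 lower in fetal liver, against 74 and 208. The cause was not tested. Signals near background limit Hamp2, Bmp6, Il6 and fetal Hamp.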
